A study of Bos taurus with 18 samples.

Results

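The region of bovine chromosome 8 around a cluster of 4 CpGs that the study's annotation assigned to PPP2R2A was described here. The cluster, at chr8:74732411-74732477 of the bosTau8 build, was selected on its measured methylation levels across the treatments. The region was then built by position alone. Neighbouring CpGs of the deposited table were joined wherever the gap between them was at most 10 kb, and the joined block that holds the cluster was kept with all of its CpGs. It ran from position 74651155 to 74790339, over 139185 bp, and held 397 of the 31500 CpGs measured, which made it the 7th largest of 612 such regions. The table's nearest CpGs outside it lay 11800 bp before its start and 11130 bp after its end. Of its 397 CpGs, 4 belong to the selected cluster and 393 do not.

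PPP2R2A encodes B55 alpha, a regulatory subunit of protein phosphatase 2A, a serine and threonine phosphatase built from a scaffold, a catalytic and a regulatory subunit. The regulatory subunit directs the catalytic subunit to its substrates, and enzymes with B55 alpha are known for roles in mitotic exit and in dephosphorylation of signalling kinases. Methylation of the cytosine in a CpG is copied to the new strand after DNA replication by the maintenance methyltransferase DNMT1, with methyl groups that come from S-adenosylmethionine, the product of the folate and methionine cycles. Most CpGs of somatic cells outside CpG-rich promoters are methylated. The gene assignment rests on the nearest transcription start site with no limit on the distance, so it does not place the CpGs inside the gene. In the RefSeq annotation of a later cattle assembly (ARS-UCD2.0), the protein-coding neighbours of PPP2R2A are EBF2, a transcription factor gene, and BNIP3L, a mitophagy receptor gene. No genome or annotation of the bosTau8 build was used here, so whether a CpG lies in an exon, an intron or a UTR was not analysed, and no sequence is shown.

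The cells were EBTr, an established line of bovine embryonic tracheal fibroblasts, in medium whose glucose was either 1 g/L (Low treatments) or 4.5 g/L (High treatments). Within each glucose level, cells received Control medium with 0.001 g/L folate, 0.001 g/L choline, 4 µg/L vitamin B12 and 0.015 g/L methionine, or medium in which these epigenetic modifiers (EM) were raised to ×2.5 or ×5. The labels give these multiples for all 4 modifiers, whereas the study's methods give a single smaller multiple for methionine in every supplemented medium. All groups were of 1 cell line, and the base medium with fetal bovine serum was common to all of them.

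Each of the 6 treatments had 3 libraries of reduced representation bisulfite sequencing (RRBS), a method that reads CpGs in fragments cut at a restriction site. Nothing says that the 3 tubes of a treatment came from separate cultures, so p-values measure only the spread between these libraries, which may be technical. The table gives M-values, the log2 ratio of methylated to unmethylated signal. Each row of it is 1 cytosine of a CpG, so a CpG read on both strands takes a pair of rows, and numbers of CpGs given here are numbers of rows. Levels here are those ratios turned into percentages, and the reads behind each value are unknown. Mean levels over all 31500 CpGs ranged from 67.2% to 70.0% among the 18 libraries. Low Control replicates 2 and 3 had mean levels of 67.8% and 67.2%, against 69.6% in Low Control replicate 1, and 2 of the 3 lowest levels of the 18 libraries were theirs. Every comparison with Low Control rests on these libraries, so values with each library centred on its median M-value, or without a Low Control library, are given beside the results that they change.

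The region was mostly methylated, as was the table. Over the 18 libraries the mean level of its 397 CpGs was 69.5% and the median 79.1%, against 68.9% and 75.5% for all CpGs. A level of 80% or more was found at 188 CpGs of the region (47.4%, against 40.9% of all CpGs), a level from 20% to 80% at 200 (50.4%, against 55.7%), and a level under 20% at 9 (2.27%, against 3.37%). Levels from 60% to 70% were less frequent in the region, at 29 CpGs or 7.30% against 12.6% of all CpGs. Those from 30% to 40% were more frequent, at 33 CpGs or 8.31% against 5.17%. The 225 CpGs before the selected cluster had a mean level of 70.9% and the 168 after it 67.4%. The SD between replicates of a treatment had a median of 4.67 percentage points in the region and 4.58 over all CpGs. These shares describe the region, and CpGs on the same fragment are not independent. Some clusters, such as those that start at 74653466 and 74660840, also shared a run of the same spacings between CpGs. Intermediate and high levels followed in the same order there. Whether such clusters have alike sequences was not analysed.

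**Figure D1:**
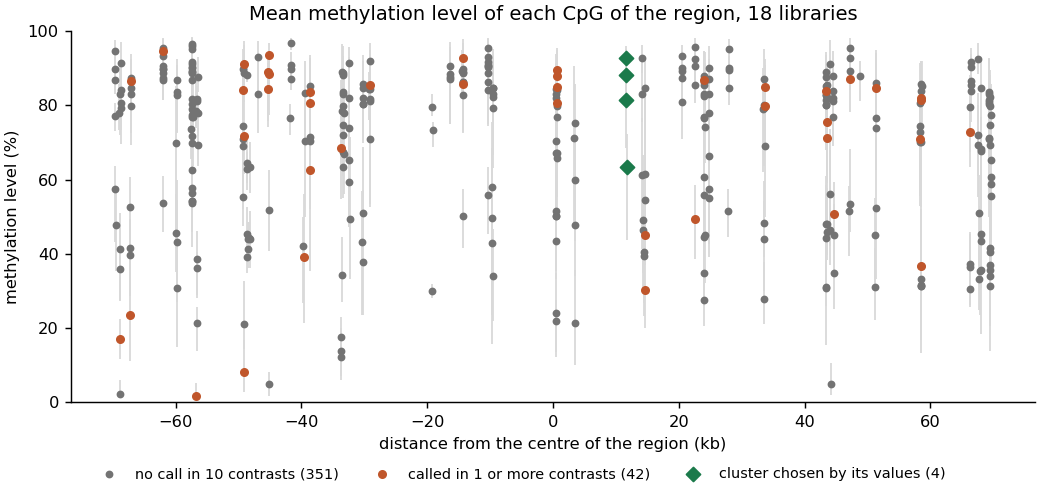
The mean methylation level (%) of each of the 397 CpGs over 18 libraries is plotted against its distance (kb) from the centre of the region, with a grey line from the lowest to the highest library. Orange points mark the 42 CpGs called in at least 1 of 10 contrasts and green diamonds the 4 CpGs of the selected cluster. Highly methylated and intermediate CpGs stand side by side along the whole region, and 9 CpGs have a mean level under 20%.

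The CpGs fell into short groups. With neighbours under 100 bp apart joined and at least 3 CpGs required, the region held 45 positional clusters with 393 CpGs, and 4 CpGs lay outside any cluster. A cluster held a median of 7 CpGs. The largest, of 27 CpGs at chr8:74663275-74663470, had a mean level of 78.2%. Next were 22 CpGs at chr8:74790055-74790339 (63.4%), 20 at chr8:74721155-74721393 (67.3%), 19 at chr8:74764076-74764280 (69.2%) and 18 at chr8:74779118-74779367 (63.3%). The highest cluster mean was 88.5%, over 4 CpGs at chr8:74704385-74704406, and the lowest was 44.9%, over 7 CpGs at chr8:74687043-74687165. Both of these clusters lay before the selected one, so high and low clusters occurred on the same side of it.

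The 9 CpGs under 20% lay in clusters that were otherwise more methylated. The lowest, 74664075, had a level of 1.73%, while the CpG 4 bp away had 81.4% and the 10 remaining CpGs of its cluster averaged 65.4%. CpG 74675528 had a level of 4.81%, and the CpG 2 bp away had 93.6%. CpG 74651870 had 2.36%, with 83.1% at the CpG 14 bp away. For all 9, the remaining CpGs of the cluster averaged between 49.4% and 81.4%. Of the 9, 3 lay in the cluster with the lowest mean, 23 bp apart from one another, at 12.1%, 13.8% and 17.7%. No positional cluster of the region had a mean level under 44.9%.

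Cytosines 1 bp apart are usually those of both strands of the same CpG, and bisulfite reads report each strand separately. The region held 80 steps of 1 bp between neighbouring rows, but where adjacent CpGs follow each other directly some of these steps join different CpGs. In the 77 pairs with no further cytosine 1 bp away, levels differed by a median of 2.40 percentage points, against 1.79 over 5637 such pairs of the table, and by less than 5 points in 57 pairs (74.0%, against 84.7%). In 5 of the 77 the gap exceeded 10 points, and it was widest for the pair that starts at 74788424, with 33.1% and 51.1%. After treatment means were removed, the deviations of the 18 libraries had a median Pearson correlation of 0.036 in these 77 pairs (0.016 over all 80 steps of 1 bp), 0.26 in 151 pairs 2 to 9 bp apart and 0.056 in 1377 pairs 10 to 99 bp apart, and it was 0.021 in pairs beyond 10 kb. Members of a pair share libraries, and those 2 to 9 bp apart can share reads. The pairs 1 bp apart thus had close levels, while their deviations from library to library had a median correlation near 0.

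The selected cluster had 4 CpGs within 67 bp. The nearest CpGs of the table lay 8127 bp before it and 2405 bp after it. Its mean level was 80.5%, 76.6% and 73.7% in the 3 Low Control libraries, 83.1%, 82.7% and 84.4% in Low ×2.5, and 85.4%, 84.8% and 82.5% in Low ×5. In the High cells it was 85.9%, 81.0% and 86.0% in Control, 83.8%, 78.4% and 75.9% in ×2.5, and 78.4%, 81.6% and 81.0% in ×5. Low Control lay below both supplemented Low treatments without overlap, whereas the High treatments overlapped. Since the cluster was chosen by these values, they are a description and no test is given.

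In Low cells, the cluster mean was 76.9% ± 3.42 (SD, n = 3) in Control, 83.4% ± 0.911 at ×2.5 and 84.2% ± 1.52 at ×5, and the latter 2 were 6.48 and 7.31 percentage points above Control. In High cells it was 84.3% ± 2.85 in Control, 79.4% ± 4.04 at ×2.5 and 80.3% ± 1.67 at ×5, which gave differences of -4.96 and -3.98 points. High Control was 7.40 points above Low Control, and High ×5 was below Low ×5 (difference of -3.88 points), both without overlap. A High supplemented library exceeded a High Control library in 1 of 9 pairs at either level of EM. Over all CpGs the same differences were 1.18 and 1.28 points in Low cells and -0.38 and -0.91 points in High cells. With every library centred on its median, the cluster differences became 5.01 and 5.72 points in Low cells and -4.55 and -3.17 points in High cells. The signs were unchanged, which is no support for the direction, since the cluster was chosen by these values.

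The 4 CpGs differed in level and in how far they varied. CpG 74732425 was the most methylated, at 92.4% ± 2.54 in Low Control, 94.8% ± 2.03 in Low ×5, 94.8% ± 1.39 in High Control and 89.2% ± 2.90 in High ×5. CpG 74732411 had 84.5% ± 5.86, 92.8% ± 2.66, 88.2% ± 4.63 and 89.0% ± 0.908 in the same treatments, so its High ×5 mean was not below its High Control mean. CpG 74732417 had 75.5% ± 6.22, 82.3% ± 1.47, 86.9% ± 3.05 and 79.9% ± 2.52. The remaining CpG had the lowest level and the widest spread.

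CpG 74732477 was at 64.0%, 43.8% and 57.9% in Low Control, 68.8%, 58.7% and 68.8% in Low ×2.5, and 69.8%, 68.9% and 62.0% in Low ×5. In High cells it was at 70.4%, 60.5% and 71.2% in Control, 72.2%, 56.8% and 57.1% at ×2.5, and 55.2%, 68.4% and 66.0% at ×5. All treatments overlapped, and Low Control replicate 2, at 43.8%, was the lowest of the 18 values. The Low ×5 mean of 66.9% ± 4.28 and the Low Control mean of 55.2% ± 10.4 were the farthest apart within Low cells.

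**Figure D2:**
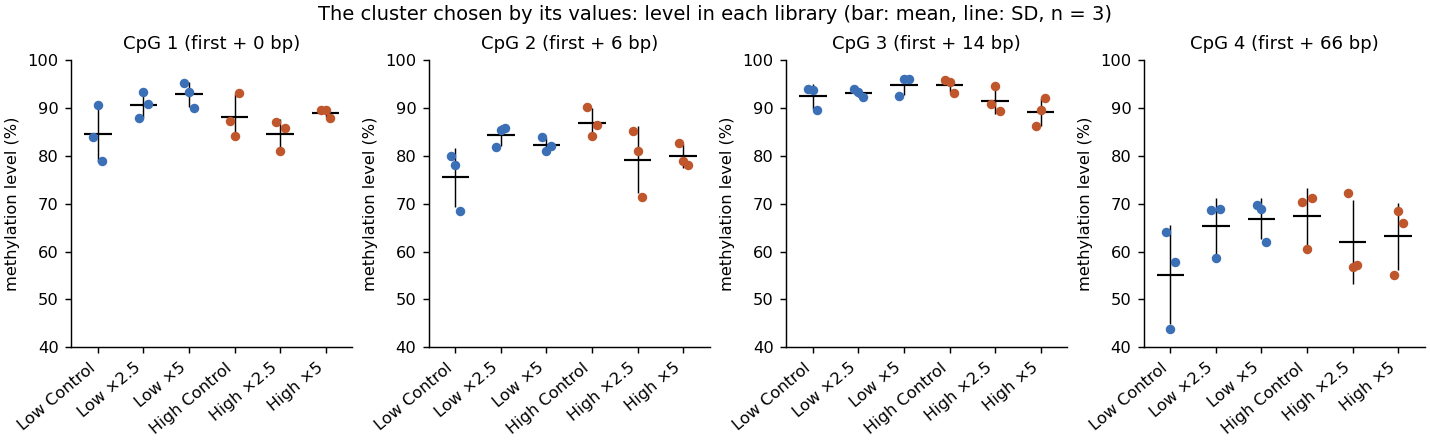
Methylation level (%) of the 4 CpGs of the selected cluster in each library, by treatment (blue, Low; orange, High), with the bar at the mean and the line at 1 SD of 3 libraries; the vertical axis starts at 40%. Low Control has the lowest mean in 3 of the 4 panels, and CpG 4 shows the widest spread.

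The CpGs nearest to the selected cluster had differences of the opposite sign. The cluster of 5 CpGs before it, at chr8:74724103-74724284, had a mean of 56.0% ± 5.57 in Low Control and 54.8% ± 2.78 in Low ×5, and of 52.0% ± 5.51 in High Control and 58.9% ± 1.90 in High ×5. The 5 CpGs after it, at chr8:74734882-74734991, had 69.4% ± 3.29 and 67.2% ± 2.67 in Low Control and Low ×5, and 63.4% ± 5.74 and 64.6% ± 3.82 in High Control and High ×5. The next 7 CpGs, at chr8:74735269-74735387, had 53.9% ± 3.00, 50.2% ± 0.432, 48.1% ± 1.43 and 51.5% ± 3.21 in the same order. At all 3 the mean with EM at ×5 was below Control in Low cells and above it in High cells, the opposite of the selected cluster. At the 5 CpGs after the selected cluster both differences were within the SD of the treatments. At the 5 CpGs before it the Low difference, of -1.20 points, was within the SD too, and the High one, of 6.87 points, was not. Whether these differences differ from those of the selected cluster was not tested.

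Outside the selected cluster the differences between treatments were near those of the table. The mean level of the 393 CpGs was 68.9% ± 1.11 (SD, n = 3) in Low Control, 70.0% ± 0.563 in Low ×2.5 and 69.9% ± 0.318 in Low ×5. It was 69.6% ± 0.606 in High Control, 69.2% ± 0.979 in High ×2.5 and 68.9% ± 0.799 in High ×5. The Low supplemented treatments were 1.14 and 0.97 points above Low Control, and the High ones differed from High Control by -0.39 and -0.75 points, which was close to the differences over all CpGs given above. With the libraries centred on their medians the region's differences from Low Control became -0.49 and -0.85 points and that of High ×5 from High Control 0.28 points, so no direction is read from them.

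By positional cluster, 32 of 44 had a higher mean in Low ×2.5 and 30 of 44 in Low ×5 than in Low Control, with median differences of 1.07 and 1.34 percentage points. These were 72.7% and 68.2% of the clusters, against 74.2% and 74.5% of the 2663 clusters of the table. In High cells, 24 of 44 were lower at ×2.5 and 27 of 44 at ×5 than in Control, with median differences of -0.32 and -1.09 points, which made 54.5% and 61.4% against 59.1% and 71.2% of the table's clusters. With centred libraries 20 and 19 of 44 were higher in the Low treatments and 22 and 24 of 44 lower in the High ones, so no direction is read from these counts either. The largest uncentred difference at Low ×5, of 6.99 points, was in the 6 CpGs that start at 74682118. At High ×5 the differences ran from -4.70 points, in the cluster that starts at 74754205, to 6.87 points, in the one that starts at 74724103.

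**Figure D3:**
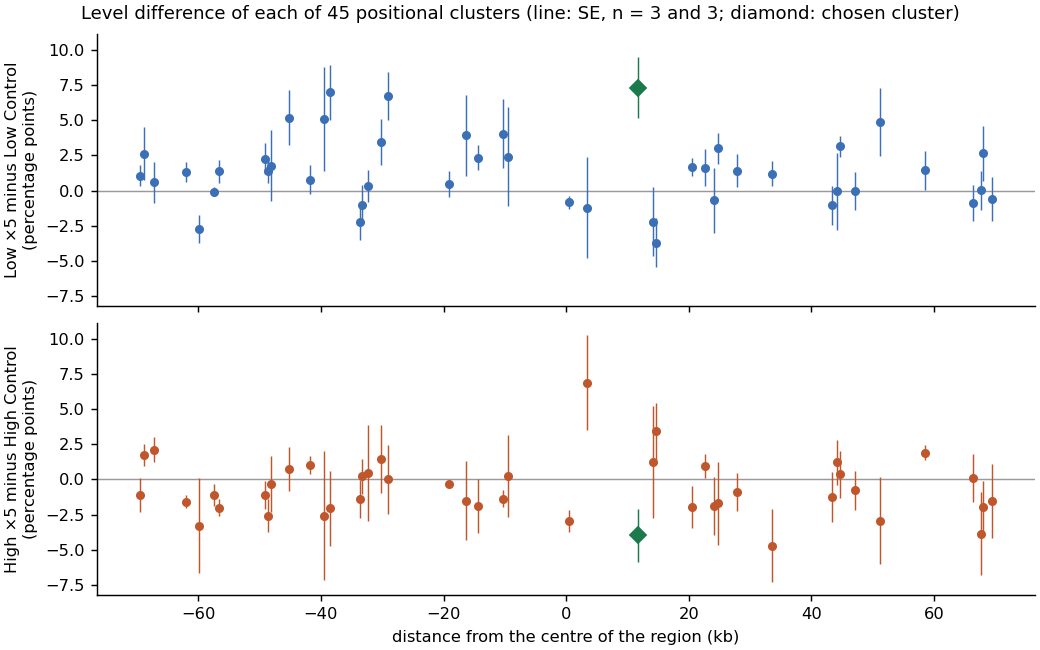
The difference in mean level (percentage points) between ×5 and Control is plotted for each of the 45 positional clusters of the region against the distance (kb) from its centre, in Low cells above and in High cells below; lines are the SE from 3 and 3 libraries. The selected cluster (diamond, 7.31 points in Low and -3.98 in High), which was chosen by its values, is at the top of the Low panel and near the bottom of the High panel. Its nearest neighbours lie on the other side of 0 in both panels.

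Each contrast between treatments was tested at every CpG of the table with limma, a linear model whose variance estimate borrows from all CpGs, and a call means an unadjusted p-value under 0.01, the threshold the study used. In Low ×2.5 vs. Low Control, 13 of the 393 CpGs were called (3.31%, against 2.0% of all CpGs). Of these, 12 were methylated, that is higher in the supplemented cells, against 1.53% of all CpGs, and 1 was demethylated (background 0.470%). In Low ×5 vs. Low Control, 16 were called (4.07%, against 2.40%), of which 12 were methylated (background 1.78%) and 4 demethylated (background 0.619%). In Low ×5 vs. Low ×2.5 limma called 0, against 0.371% of all CpGs, and 5 had an unadjusted p-value under 0.05 (1.27%, against 2.39% of all CpGs). The region's shares for both Low Control contrasts were above those of the table, and no CpG of the region reached an adjusted p-value under 0.05.

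The split of these calls changed with scaling, and their number changed with scaling and with the Low Control library left out. With libraries centred on their medians, Low ×2.5 vs. Low Control had 5 methylated and 3 demethylated CpGs, and Low ×5 vs. Low Control had 6 and 6. Centring moved the median log2 difference of all CpGs from 0.10 to -0.06 in the latter contrast. Without Low Control replicate 1, 20 and 23 CpGs were called in the respective contrasts, and without Low Control replicate 3, 6 and 7 were. Without Low Control replicate 2 the first contrast had 6 calls and the second had 13. The share of all CpGs called in such alternative fits is not given, here or below. A change in the region's count is therefore not told apart from a change over the whole table.

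EM in High cells was accompanied by few calls. High ×2.5 vs. High Control had 3 (1 methylated, 2 demethylated), at a background of 1.02%, High ×5 vs. High Control had 3 (1 and 2), at a background of 1.37%, and High ×5 vs. High ×2.5 had 3 (2 and 1), at a background of 1.47%. In each, the 3 calls made up 0.76% of the region's 393 CpGs. The table's shares of methylated and demethylated CpGs were 0.343% and 0.676% for High ×2.5 vs. High Control, 0.292% and 1.08% for High ×5 vs. High Control, and 0.454% and 1.02% for High ×5 vs. High ×2.5. After centring the splits of the contrasts with High Control were 2 methylated and 2 demethylated at ×2.5, and 1 and 0 at ×5.

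Between glucose levels, 11 CpGs were called in High Control vs. Low Control (2.80%, background 1.92%), 6 of them higher in High Control (1.53%, background 1.38%) and 5 lower (1.27%, background 0.543%). After centring, 3 were higher and 7 lower, and without Low Control replicate 1 there were 24 calls. Without Low Control replicate 2 or 3 there were 7 and 4. At ×2.5, High against Low cells gave 3 calls (background 1.01%), all lower in High cells (background 0.698%), and with centring 1 was higher and 2 were lower. High ×5 vs. Low ×5 had 5 (1.27%, background 1.61%), all lower in High cells (background 1.30%). High ×5 vs. Low Control had 10 (2.54%, background 1.75%), with 6 higher (background 0.940%) and 4 lower (background 0.813%), and without Low Control replicate 1 it had 16. Contrasts that share Low Control or another treatment share its libraries, so these counts are not independent.

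The test of whether the EM difference itself differed between High and Low cells, an interaction in the same model, called 9 CpGs at ×2.5 (2.29%, background 1.85%) and 7 at ×5 (1.78%, background 2.79%). At ×2.5, 3 of the interactions were above 0 (background 0.435%), meaning a larger log2 difference in High cells, and 6 below it (background 1.42%). At ×5, 1 was above (background 0.568%) and 6 below (background 2.23%). Centring gave 3 above and 2 below at ×2.5, and 3 above and 5 below at ×5, while the median interaction over all CpGs moved from -0.18 to 0.07 at ×5. Without Low Control replicate 1 the interaction at ×5 had 19 calls, and that at ×2.5 had 5 and 3 without replicates 2 and 3. The share of interactions called in the region was above that of the table at ×2.5 and below it at ×5. Both rest on few calls, whose number changed in these fits, so no excess or deficit is read from them.

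**Figure D4:**
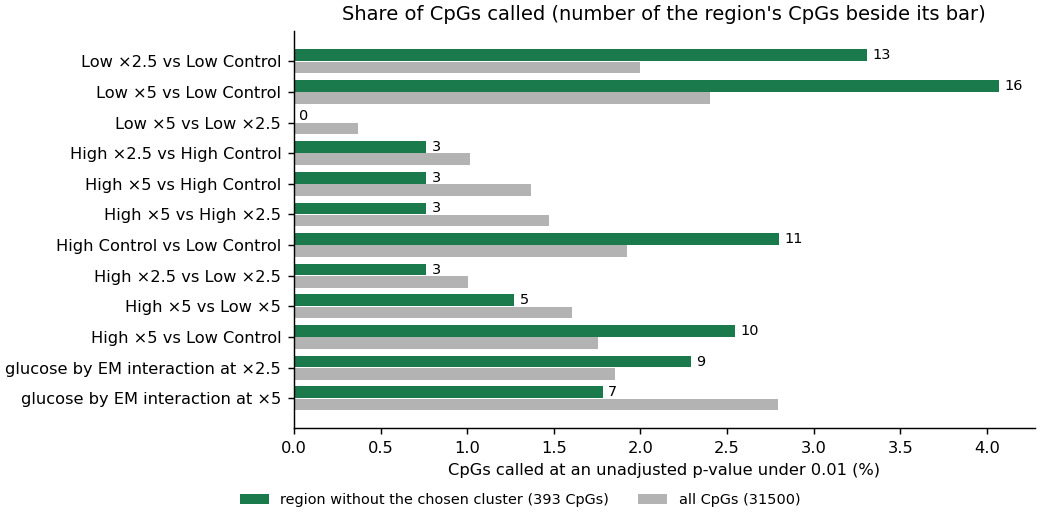
Bars give the share (%) of CpGs called at an unadjusted p-value under 0.01 in each of 10 contrasts and 2 interactions, for the 393 CpGs of the region outside the selected cluster (green, number of calls beside the bar) and for all 31500 CpGs (grey). The region is above the table in the contrasts with Low Control, for example 4.07% against 2.40%, and below it in the interaction at ×5, with 1.78% against 2.79%.

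Summed over the 10 contrasts there were 67 calls, 40 higher and 27 lower in the treatment named first. The same sums over the table are not given, so this number and its split only describe the region. The calls were at 42 CpGs, or 10.7% of the 393 CpGs, against 9.68% of all CpGs with at least 1 call. They fell in 22 of the 44 remaining positional clusters, and the other 22 had none. The like share of the table's clusters is not given. The largest cluster, of 27 CpGs, and the last one, of 22, had no call, nor did the first CpG of the region, 74651155 (57.6%), and its last, 74790339 (77.5%). The 6 CpGs at chr8:74675516-74675582 had 11 calls, the most of any cluster, followed by 7 each in the 12 CpGs at chr8:74671481-74671611 and the 18 CpGs at chr8:74779118-74779367.

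With the mean M-value of each cluster tested in place of single CpGs, 7 of 440 tests of the region were called (1.59%), against 1.84% of the tests of all clusters in the table. They concerned 4 clusters, and all 7 were in contrasts with Low Control (7 of 176 tests, 3.98%, background 2.81%), which also held 299 of the 490 calls over the clusters of the table. The interaction was called in 1 of 44 clusters at ×2.5 (background 3.27%) and in 1 of 44 at ×5 (background 6.53%). No adjusted p-value of these was under 0.05. The cluster at chr8:74682118-74682192 averaged 74.2%, 68.4% and 68.2% in the Low Control libraries, 74.9%, 81.1% and 78.5% in Low ×2.5, and 76.9%, 77.3% and 77.6% in Low ×5. Both supplemented treatments lay above Low Control without overlap, by 0.75 ± 0.18 (log2, SE; limma adjusted p = 0.238) and 0.57 ± 0.18 (adjusted p = 0.230). The call for Low ×2.5 was lost without replicate 2 (0.53) or replicate 3 (0.68) of every treatment. That for Low ×5 was lost without either of these (0.49 and 0.48), without Low Control replicate 2 (0.48) or 3 (0.51), and with centring (0.41).

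The cluster at chr8:74675516-74675582 averaged 67.5%, 61.7% and 64.8% in Low Control, 70.5%, 69.9% and 69.6% in Low ×2.5, 68.8%, 68.7% and 71.9% in Low ×5, and 68.7%, 72.2% and 68.5% in High ×5. Low Control was again below the others without overlap, by 0.61 ± 0.20, 0.64 ± 0.20 and 0.65 ± 0.20 on the log2 scale (limma adjusted p = 0.329, 0.224 and 0.608). Without Low Control replicate 2 the difference of Low ×5 fell to 0.43 (unadjusted p = 0.0485 from limma, no longer a call), and centring brought it to 0.48 (unadjusted p = 0.0502). The difference of High ×5 was likewise no call without Low Control replicate 2 (0.44) or with centring (0.62). Of 6 fits that each left out a replicate number or a Low Control library, the call was kept in 2 for Low ×2.5, 3 for Low ×5 and 4 for High ×5.

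The remaining 2 called clusters also had Low Control at the low end. That at chr8:74691576-74691649 averaged 80.7%, 75.2% and 77.1% in Low Control and 80.6%, 85.4% and 86.4% in Low ×2.5, which overlapped (0.67 ± 0.23, limma adjusted p = 0.329), and its call was kept in 2 of 6 such fits and lost with centring (0.53). That at chr8:74771938-74772076 averaged 62.6%, 60.6% and 55.1% in Low Control and 67.2%, 69.2% and 66.4% in High Control, without overlap (0.72 ± 0.22, adjusted p = 0.277). The latter was no call without replicate 1 (0.84) or replicate 2 (0.68) of every treatment, without Low Control replicate 3 (0.57) or with centring (0.61).

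The most often called CpGs of the region were 74675516 and 74675537, both in the cluster that starts at 74675516. CpGs called in at least 4 contrasts were 2 of the region's 393 (0.51%), against 0.42% of all CpGs, so no excess is read from them. CpG 74675516 was at 86.4%, 74.1% and 81.6% in Low Control, 91.5%, 90.4% and 89.6% in Low ×2.5, and 90.4%, 90.2% and 94.0% in Low ×5. In High cells it was at 86.1%, 91.3% and 91.1% in Control, 91.0%, 86.5% and 93.3% at ×2.5, and 91.5%, 93.0% and 89.6% at ×5. Low Control was below both supplemented Low treatments and High ×5 without overlap, and it overlapped High Control. The CpG was called in 4 contrasts, all against Low Control, with log2 differences of 1.15 ± 0.34 (SE) for Low ×2.5, 1.35 ± 0.34 for Low ×5, 1.01 ± 0.34 for High Control and 1.31 ± 0.34 for High ×5 (limma adjusted p = 0.464, 0.326, 0.515 and 0.478).

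CpG 74675537, 21 bp further on and likely on the same reads, was called in the same 4 contrasts. It was at 88.0%, 77.4% and 77.6% in Low Control, while its remaining 15 libraries lay between 87.5% and 93.4%. Low Control replicate 1 fell inside that range and replicates 2 and 3 far below it. The log2 differences from Low Control were 1.12, 1.27, 0.92 and 1.01 (SE 0.31 each) for Low ×2.5, Low ×5, High Control and High ×5.

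CpG 74682185 had the smallest p-value of the region in Low ×2.5 vs. Low Control. It was at 80.0%, 76.2% and 70.6% in Low Control, 82.9%, 93.7% and 89.7% in Low ×2.5, and 88.2%, 86.2% and 86.0% in Low ×5. The Low treatments did not overlap with Low Control, and the difference at ×2.5 was 1.45 ± 0.33 (limma adjusted p = 0.436). The call was lost without replicate 2 or without replicate 3 of every treatment.

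CpG 74671594, 1 of the 9 weakly methylated CpGs, had the smallest p-value in Low ×5 vs. Low Control and was lower with EM. It was at 10.2%, 15.6% and 16.7% in Low Control, 10.2%, 5.19% and 6.06% in Low ×2.5, and 4.59%, 4.41% and 3.08% in Low ×5. In High cells it was at 2.67%, 10.0% and 6.78% in Control, 5.36%, 7.14% and 12.0% at ×2.5, and 11.8%, 7.69% and 7.14% at ×5. Low ×5 was below Low Control without overlap, by a log2 difference of -1.97 ± 0.46 (limma adjusted p = 0.317), and High Control was lower than Low Control by a log2 difference of -1.42 ± 0.46 (adjusted p = 0.508). The call for Low ×5 was lost without replicate 3 of every treatment. On the log2 scale a step of a few points weighs more at such a low level than near the middle of the range.

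At CpG 74764136, as at 74671594, Low Control was the highest treatment. Its levels were 88.4%, 89.7% and 91.3% in Low Control, and between 77.0% and 86.9% in the 15 remaining libraries, so Low Control lay above all of them. High ×5, at 85.0%, 77.3% and 77.8%, was lower by a log2 difference of -1.12 ± 0.27 (limma adjusted p = 0.475). It was also lower in Low ×2.5, at 79.4%, 83.2% and 84.0% (-0.93 ± 0.27), and in High Control, at 82.7%, 86.9% and 77.0% (-0.90 ± 0.27). The call for High ×5 was lost without replicate 2 or replicate 3 of every treatment.

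CpG 74779163 had the smallest p-value between the Control treatments. It was at 66.7%, 52.9% and 57.1% in Low Control, 71.1%, 75.0% and 70.1% in Low ×2.5, and 76.0%, 71.3% and 81.2% in Low ×5. In High cells it was at 77.6%, 75.7% and 74.6% in Control, 78.9%, 68.6% and 79.2% at ×2.5, and 69.6%, 60.9% and 71.4% at ×5. Low Control was below both Low supplemented treatments and High Control without overlap, and High ×5 was below High Control without overlap. The difference of High Control from Low Control was 1.13 ± 0.29 (limma adjusted p = 0.440), a call that was lost without replicate 3 of every treatment. The interaction at ×5 was -1.78 ± 0.41 (adjusted p = 0.201).

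CpG 74658739 had the smallest interaction p-value at ×5, over a narrow range of levels. It was at 94.5%, 92.6% and 90.9% in Low Control, 95.8%, 96.4% and 95.9% in Low ×2.5, and 95.3%, 97.6% and 95.8% in Low ×5. In High cells it was at 94.6%, 95.3% and 96.7% in Control, 96.5%, 93.6% and 95.7% at ×2.5, and 91.9%, 92.9% and 92.1% at ×5. Low ×5 was above Low Control and High ×5 below High Control, both without overlap. The interaction was -1.92 ± 0.43 on the log2 scale (limma adjusted p = 0.201), and its call was lost without replicate 3 of every treatment.

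**Figure D5:**
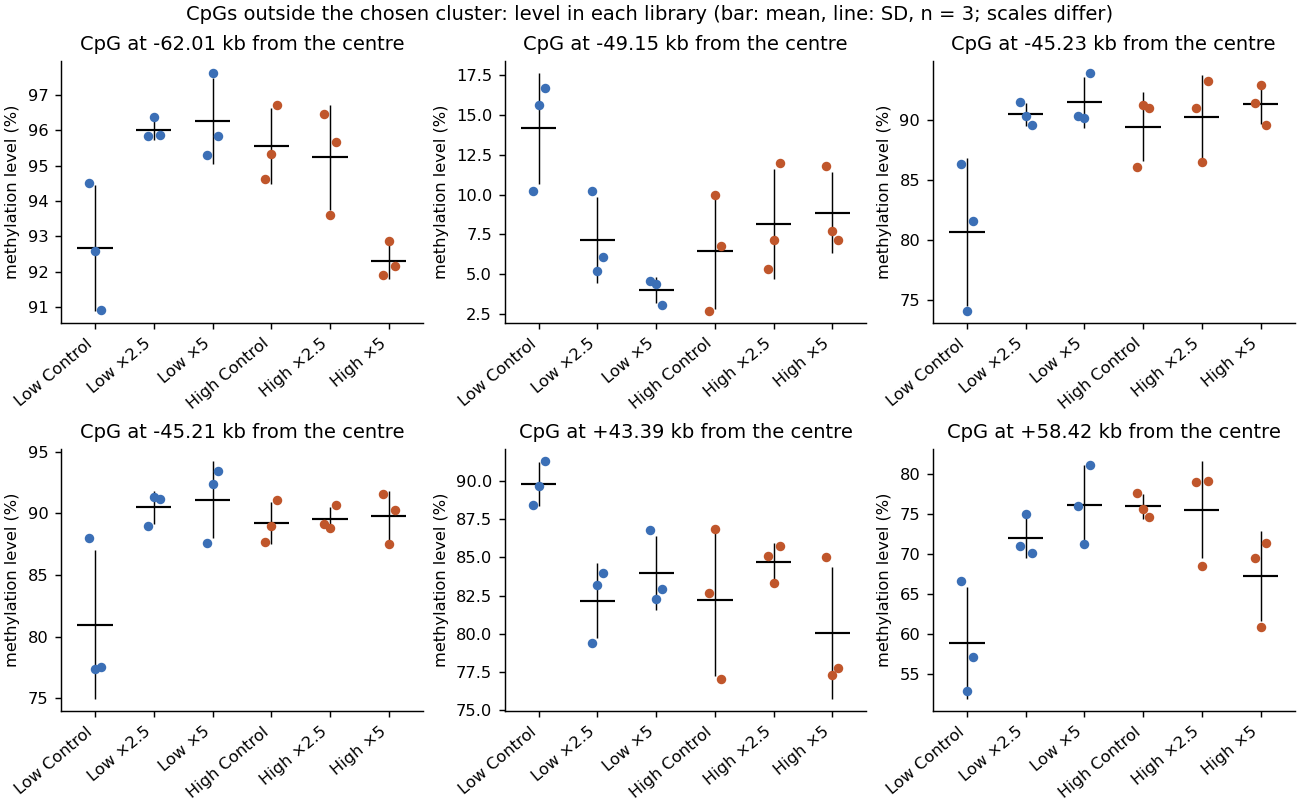
Methylation level (%) in each library, by treatment (blue, Low; orange, High; bar, mean; line, 1 SD of 3 libraries), of 6 CpGs outside the selected cluster: 74658739, 74671594, 74675516, 74675537, 74764136 and 74779163, in reading order. Vertical axes differ and do not start at 0. Low Control has the lowest mean at 74675516, 74675537 and 74779163 and the highest at 74671594 and 74764136.

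Other CpGs had the smallest p-value of the remaining comparisons. CpG 74706390 was at 93.9%, 96.8% and 97.8% in Low ×5 and 90.0%, 87.2% and 92.4% in High ×5, without overlap (-1.61 ± 0.38, limma adjusted p = 0.448). CpG 74721382 was at 86.2%, 87.8% and 84.7% in Low ×2.5 and 84.1%, 66.0% and 62.8% in High ×2.5, where the first High library was close to the Low ones (-1.28 ± 0.37, adjusted p = 0.945). CpG 74772062 had the smallest p-value for the interaction at ×2.5, with 78.0%, 80.0% and 71.4% in Low Control, 93.5%, 90.5% and 85.9% in Low ×2.5, 94.9%, 88.6% and 83.3% in High Control, and 88.6%, 88.5% and 73.1% in High ×2.5 (-2.24 ± 0.68, adjusted p = 0.494). Its Low treatments were apart and its High treatments overlapped, and the call was lost without replicate 1 (-1.72) or replicate 2 (-2.72) of every treatment and without Low Control replicate 3 (-2.04).

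Within High cells, CpG 74653565 was at 29.4%, 31.0% and 21.3% in Control and 22.5%, 15.8% and 11.1% at ×2.5, with overlap (-0.97 ± 0.28, limma adjusted p = 0.949). CpG 74767901 was at 88.2%, 92.0% and 91.5% at ×2.5 and 78.2%, 86.6% and 84.0% at ×5, without overlap (-0.98 ± 0.25, adjusted p = 0.643), and its call was lost without replicate 3 of every treatment and with only the 6 libraries of the contrast. CpG 74735335, which lies 2858 bp after the selected cluster, was at 38.5%, 43.3% and 37.0% in Control and 50.0%, 56.3% and 51.4% at ×5, without overlap (0.76 ± 0.23, adjusted p = 0.648). The call of 74735335 was lost without any 1 of the 3 replicates (unadjusted limma p of 0.0221 to 0.0424), and the calls of 74653565, 74706390 and 74721382 were each kept in 1 of 3 such fits. With only the 6 libraries of the contrast, the calls of 74735335, 74653565 and 74721382 were lost too, and that of 74706390 was kept.

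The likeness of each remaining CpG to the selected cluster was measured as the Pearson correlation of its M-values with the cluster mean over the 18 libraries. Over 393 CpGs the median was 0.14 and the range -0.81 to 0.78, with 35 above 0.5. The like share over the table is not given, so the 35 only describe the region. The libraries share a table-wide shift, so a value above 0 needs nothing local. The most alike were 74779300 (0.779), 46823 bp after the cluster, 74651190 (0.736), near the start of the region, and 74658739 (0.692). CpG 74779300 had means of 70.3% ± 11.4 in Low Control, 83.9% ± 2.51 in Low ×2.5, 86.5% ± 3.96 in Low ×5, 88.6% ± 1.01 in High Control, 76.7% ± 11.5 in High ×2.5 and 82.5% ± 7.45 in High ×5. CpG 74651190 had 74.9% ± 1.82, 77.8% ± 1.35, 79.1% ± 1.66, 79.3% ± 1.38, 76.6% ± 3.37 and 75.3% ± 3.04 in the same order. None of the 3 was near the selected cluster, and as they were picked for this likeness no test is given for it.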

How the data were processed

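RRBS libraries of 18 EBTr samples (6 treatments, 3 libraries each) were analysed. Per the study's methods and processing notes, the authors checked reads with FastQC 0.11.8 and MultiQC 1.9, trimmed adapters with Cutadapt, used Bismark 0.22.3 for mapping to bosTau8 and for methylation calls, removed CpGs with fewer than 10 counts or extreme coverage, and tested with edgeR. The deposited table holds log2 values (M-values) per CpG and library. It gives no reads, so depth is unknown, no interval or count test could be made, and the offset added to the ratio is not given in the sources used here. A level is 100 times 2 to the power M over 1 plus the same, with the offset still in it.

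limma 3.58.1 (R 4.3.3) was fitted to all 31500 CpGs with 1 mean per treatment, and to the mean M-value of 2663 positional clusters. Two-sided p-values under 0.01 were called, with Benjamini-Hochberg adjustment over the table. The 6th contrast of the study's list repeats the 4th and was read as Low ×5 vs. Low ×2.5. CpGs were named if they belonged to the selected cluster, were first or last, had the smallest p-value under 0.01 of a contrast or interaction, were among the 5 called most often (at least 3 contrasts), or were the 3 most like the selected cluster. Clusters were named likewise, plus those with the lowest and highest level. The members, gap and lists were chosen with earlier results of these data known. In data simulated for Low ×5 vs. Low Control over 31500 CpGs with 200 changed, the fit called 56% of changes of 1 and 98% of changes of 2 on the log2 scale, and 0.997% and 1.03% of unchanged CpGs. For the interaction at ×5, simulated the same way, it called 25.5% and 87%, and 0.949% and 1.08% of unchanged CpGs. The simulated noise was independent between CpGs and held no shift common to a library. These rates therefore need not hold for the measured data, whose libraries differ in mean level. Alternatives were median centring, levels as fractions, a level filter, 6-library fits, a replicate block, other gaps and leaving out libraries. Python 3.11.15, numpy 2.4.6, pandas 2.3.3 and matplotlib 3.10.9 were used.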

Additional observations from a re-analysis of the deposited data

Results flagged for a closer look

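At 7 of the CpGs named for their p-values or their number of calls, the interaction test in limma gave an unadjusted p-value under 0.01. None had an adjusted p-value under 0.05. Over all CpGs, 1.85% were called in the interaction at ×2.5 and 2.79% at ×5. CpGs 74772062 and 74658739 were named for this test itself. The others were named for contrasts whose libraries also enter it, so the 7 are no evidence that the EM difference depended on glucose. At ×2.5 the interaction was -2.24 on the log2 scale at 74772062, -1.45 at 74682185 and 1.16 at 74764136. At ×5 it was -1.92 at 74658739, -1.78 at 74779163, -1.79 at 74706390 and 2.62 at 74671594. In the 5 CpGs with a negative value the log2 difference was larger in Low cells, and in the remaining 2, 74764136 and 74671594, EM was lower than Control in Low cells. CpG 74779300, named only for its likeness to the selected cluster, is given no test. Groups of 3 libraries are too small for a search for outlying samples.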

How the results depend on the processing

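Differences in mean level moved by less than the SD between replicates in 114 of 124 recomputations. A move under that SD can still turn the sign of so small a difference. With centring, the region's difference of High ×2.5 from High Control went from -0.39 to 0.10 points. That of High ×5 from High ×2.5 went from -0.36 to 0.18. The CpGs named for their p-values kept their call in 77 of 101, with 24 calls lost and no direction turned. They were picked by p-values from libraries that these fits reuse, so unturned directions are no support. Each lost its call in at least 1 fit that left out libraries. Counts of called CpGs changed as well, and they are given without the share of all CpGs called in the same fit. With libraries centred on their medians they were 8 for Low ×2.5 vs. Low Control, 1 for High ×5 vs. High Control, 2 for High ×5 vs. Low ×5 and 5 for the interaction at ×2.5, and 3 cluster tests were called. With only CpGs from 10% to 90%, 10 were called in Low ×5 vs. Low Control, 3 in High ×5 vs. Low ×5 and 3 in the interaction at ×5, where fewer CpGs were tested. With only the 6 libraries of a contrast, 8 were called in Low ×5 vs. Low Control, 2 in Low ×5 vs. Low ×2.5, 0 in High ×2.5 vs. High Control, 0 in High ×5 vs. High ×2.5, 4 in High Control vs. Low Control, 5 in High ×2.5 vs. Low ×2.5, 10 in High ×5 vs. Low ×5 and 5 in High ×5 vs. Low Control. With levels as fractions, 2 were called in High ×5 vs. Low ×5, and 12 cluster tests. The cause of these changes was not tested. Gaps of 5 and 20 kb gave regions of 16 and 839 CpGs, with 1.67% and 1.68% of CpG and contrast pairs called, against 1.70% at 10 kb. The share of such pairs over the table is not given.

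Leaving out 1 replicate number, or 1 Low Control library (chosen after seeing the data), gave 2 to 20 calls in Low ×2.5 vs. Low Control, 5 to 23 in Low ×5 vs. Low Control, 1 to 3 in Low ×5 vs. Low ×2.5, 1 to 8 in High ×2.5 vs. High Control, 1 to 6 in High ×5 vs. High Control, 2 to 7 in High ×5 vs. High ×2.5, 4 to 24 in High Control vs. Low Control, 1 to 7 in High ×2.5 vs. Low ×2.5, 1 to 5 in High ×5 vs. Low ×5, 6 to 16 in High ×5 vs. Low Control, 3 to 16 and 5 to 19 in the interactions at ×2.5 and ×5, and 3 to 18 cluster tests.

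Whether the replicate numbers pair the libraries was not settled. Deviations of same-numbered libraries correlated between -0.106 and 0.115, and those of different-numbered ones between -0.0967 and 0.0974. Of 18 libraries, 8 were most like one of their own number. Such a correlation does not see a shift in level of a whole library. Replicate 1 had the highest mean level over all CpGs in every treatment except Low ×2.5, and whether replicate numbers share such a shift was not tested. A replicate block called 11 cluster tests in place of 7 and left every count of CpGs within 1.5 times.

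Depth is unknown, so a coverage minimum could not be tried.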
